A study of Mus musculus with 2 samples.

Results

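Of the 41174 gene probes on the mouse array, 119 were described in the array files as both immunoglobulin and variable. They were chosen by these words alone, with no measured value. By the same descriptions 54 of them belong to the heavy chain, 59 to the kappa light chain and 4 to the lambda light chain. The other 2 probes are for Bivm, a gene named for a basic immunoglobulin-like variable motif, which is not an antibody gene segment. The remaining 117 probes are for antibody variable (V) segments. Of these, 107 carry 1 of 99 segment names, all of which were found in a RefSeq table of mouse genes, where 7 of the segments are listed as pseudogenes. A further 10 probes were drawn from GenBank sequences, 1 of them (A_51_P503757) described as variable 1 of the lambda chain and counted with Iglv1, the others antibody clones with no segment name.

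A V segment encodes most of the antigen-binding end of an antibody chain. Each B cell joins a single V segment to a J segment, with a D segment between them on the heavy chain, and splices the product to a constant region, so that the RNA of a given V segment comes from the cells that carry it. V segments are sorted into families by likeness of sequence, and the first number of a segment name is its family (Igkv4-86 belongs to kappa family 4). In the gut wall most antibody RNA is made by plasma cells, which secrete mainly IgA, while the B cells of Peyer's patches and lymphoid follicles carry surface antibody of other classes.

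Intestinal total RNA was compared between gut-specific GDE5 (Gpcpd1) deficient mice and wild-type mice, all males aged 20 weeks on a normal diet, of the C57BL/6 strain by the series title. Gpcpd1 encodes GDE5, an enzyme that breaks down glycerophosphocholine. A dye swap of 2 dual-colour arrays, both on 1 slide, held both genotypes: in replicate 1 the RNA labelled KO was in Cy3 and the RNA labelled WT in Cy5, and replicate 2 had the opposite dyes. A number of 5 mice is named for the series. Not given in the sources used here are the gut region taken, the driver of the gut-specific deletion, any pooling of animals and any sharing of RNA extracts between arrays. With 2 arrays, p-values reflect only how far these hybridisations differ, which may be a technical spread, and all values are of low precision. Ratios are log2 ratios of RNA labelled KO over RNA labelled WT, given as the mean ± SD of both arrays (n = 2), and intensities are the scanner software's background-subtracted and dye-normalized spot signals, in arbitrary units that do not compare RNA levels between probes. Of the 4 probes for Gpcpd1 itself, 3 were higher in RNA labelled KO on both arrays and none was called, so that every direction given here rests on the dye labels.

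The sequences of the probes show how alike the segments are and which measurements can mix them. Each probe has 60 bases. In the following lines capitals mark the longest stretch that a probe shares with the probe of another segment or clone, which need not be printed here. Probes are printed 5′ to 3′ as the array files give them. First come the 4 segments that stood furthest from equality among tested probes whose arrays had the same direction, all of them with a probe that shares at most 25 bases in a row with another.
Ighv3-8: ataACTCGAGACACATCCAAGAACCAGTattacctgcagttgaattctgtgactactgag
Igkv4-57-1: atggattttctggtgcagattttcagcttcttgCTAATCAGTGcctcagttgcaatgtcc
Igkv4-86: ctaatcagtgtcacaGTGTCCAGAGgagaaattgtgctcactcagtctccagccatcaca
Igkv13-85: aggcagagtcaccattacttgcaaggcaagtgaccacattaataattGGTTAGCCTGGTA
These probes lie on mm9, the build of the array files, at chr12:115560614-115560673 (Ighv3-8), chr6:69494651-69494886 (Igkv4-57-1), chr6:68860655-68860899 (Igkv4-86) and chr6:68880443-68880502 (Igkv13-85), all on the minus strand. Igkv4-57-1 and Igkv4-86 span 236 and 245 bases of the genome with 60 bases of probe, so their probes are split over a gap; of 108 segment probes with a name and a position, 4 span more than 60 bases.

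The next lines show probes of kappa family 1 and of heavy family 1 that are nearly the same, so that RNA of one segment can bind the probe of the other.
Igkv1-117: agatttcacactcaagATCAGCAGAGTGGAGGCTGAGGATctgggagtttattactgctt
Igkv1-133: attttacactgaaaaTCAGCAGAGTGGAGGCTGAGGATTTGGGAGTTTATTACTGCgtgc
Igkv1-132: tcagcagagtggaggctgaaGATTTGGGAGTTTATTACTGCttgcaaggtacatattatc
Ighv1-73: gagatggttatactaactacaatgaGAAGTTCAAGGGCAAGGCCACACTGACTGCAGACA
Ighv1-82: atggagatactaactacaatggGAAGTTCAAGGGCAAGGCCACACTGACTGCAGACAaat
In the Igkv1-133 and Igkv1-132 lines the capitals mark stretches shared with a kappa clone probe (A_52_P829560) that is not printed. The Igkv1-117 and Igkv1-133 probes are identical at 53 of 58 overlapping bases, and the Ighv1-73 and Ighv1-82 probes at 54 of 57. Of the 117 segment probes, 55 share a stretch of at least 20 bases with the probe of another segment, and 28 are identical to another at 48 or more bases in an overlap of at least 40. A last pair of lines shows 2 kappa probes that are alike in a stretch toward the end but had ratios of opposite sign. Their capitals mark what each shares with the probe of Igkv12-98, which is not printed.
Igkv12-41: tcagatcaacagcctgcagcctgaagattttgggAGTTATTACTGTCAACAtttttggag
Igkv5-48: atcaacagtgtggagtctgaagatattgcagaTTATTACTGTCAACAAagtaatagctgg
Both carry TATTACTGT, the letters that encode the tyrosines and the cysteine at the end of the framework before the third hypervariable loop. Searched on both strands, this motif is in 16 of 117 segment probes (13.7%) and in 73 of all 41174 gene probes (0.177%). The median log2 ratio was 0.22 over the 15 tested segment probes with it and 0.19 over the 96 without it.

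To be tested, a probe needed a signal well above background on both arrays in at least 1 of the genotypes, a condition that 29078 gene probes met. Of the 119 members, 112 passed, and these were well above background for both genotypes on both arrays: 51 heavy, 56 kappa and 4 lambda probes and 1 of Bivm. The 7 that did not pass were Ighv4-1, Ighv7-1, a heavy chain clone (A_52_P530750), Igkv1-99, Igkv2-112, Igkv20-101-2 and the other Bivm probe, whose intensities lay between 3.44 and 16.3 in RNA labelled KO and between 2.52 and 19.6 in RNA labelled WT. Every member was printed once on an array, and none had a marked or saturated spot. Among the tested segment probes intensity ran from 19.4 to 15912 with a median of 1098 in RNA labelled KO in replicate 1, and from 25.2 to 17558 with a median of 1072 in replicate 2. In RNA labelled WT it ran from 21.6 to 16511 with a median of 833 in replicate 1, and from 25.4 to 13787 with a median of 830.4 in replicate 2.

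V segment probes were on balance higher in RNA labelled KO, and they differed among themselves. Of the 112 tested members, 67 were higher in RNA labelled KO on both arrays (20.7% of all tested probes were), 23 were lower on both (21.5% of all) and 22 had opposite signs on the arrays (57.8% of all). The median log2 ratio was 0.21 over the members, with 0.20 in replicate 1 and 0.16 in replicate 2, against -0.02 over all tested probes. Limma with Benjamini-Hochberg adjustment over all tested probes called 3 members at 0.05, Ighv3-8 and Igkv4-57-1 higher and Igkv13-85 lower (0.275% of all tested probes were called in either direction, 0.186% higher and 0.0894% lower). At least 1.5-fold apart in the same direction on both arrays were 7 members higher (0.574% of all) and 2 lower (0.251% of all), while none was 1.5-fold apart in the direction of the dyes (0.547% of all). At an unadjusted limma p under 0.05 there were 39 members, 30 higher and 9 lower, against 5.17% of all tested probes. With normexp background correction and loess in place of the scanner's own correction limma called no member and no other probe (1.21% of 29060 probes had an unadjusted p under 0.05), 3 members were 1.5-fold higher (0.12% of all) and 1 lower (0.0482% of all) on both arrays, none in the direction of the dyes (0.84% of all), and the median over the segments was 0.21.

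The arrays ranked the segments alike although their dyes were swapped. Across the 111 tested segment probes the log2 ratios of replicate 1 and replicate 2 had a Pearson r of 0.73 and a Spearman rho of 0.71, against -0.01 and -0.15 across all 29078 tested probes. The r was 0.63 over 51 heavy probes and 0.80 over 56 kappa probes. These are correlations across probes, many of which share sequence and all of which share the same hybridisations and slide, and they describe these arrays. The median SD of the 2 arrays was 0.118 over the segments, where the means had an SD of 0.403 between probes. Over all tested probes the median SD was 0.195 and the SD between probes 0.225. With normexp and loess the r was 0.37 across 110 segments and -0.38 across all probes.

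Among the heavy chain segments, 34 of 51 probes were higher in RNA labelled KO on both arrays, 6 were lower and 11 had opposite signs, with a median log2 ratio of 0.25. Ighv3-8, a segment of the small heavy family 3, stood furthest apart. Its intensity was 273.9 in replicate 1 and 302.8 in replicate 2 in RNA labelled KO, against 106 and 98.6 in RNA labelled WT. Both values of RNA labelled KO lay above both of RNA labelled WT, and the log2 ratio was 1.49 ± 0.18, or 2.81-fold higher (limma, adjusted p = 0.00136). Under normexp and loess it was 0.99 ± 0.22, and the adjusted p ran from 1.29e-10 to 1 over 9 alternatives. The 6 that kept the call all used the scanner's ratios. Both alternatives with loess and the one without the filter on dim probes lost it. The other members of family 3 did not share the size of the Ighv3-8 ratio: Ighv3-2, listed as a pseudogene, had a log2 ratio of 0.64 ± 0.09 and Ighv3-6 of 0.01 ± 0.04.

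Ighv2-3, of heavy family 2, had intensities of 161 and 169 in RNA labelled KO, against 86.9 and 106 in RNA labelled WT. The genotypes did not overlap, and the log2 ratio was 0.79 ± 0.15 (limma, adjusted p = 0.173, not called). With normexp and loess it was 0.45 ± 0.04, over 1.5 times smaller. Ighv14-2, of heavy family 14, had intensities of 711 and 760 in RNA labelled KO, against 454 and 512 in RNA labelled WT, with no overlap and a log2 ratio of 0.61 ± 0.05 (limma, adjusted p = 0.430). Its relative Ighv14-4 had a log2 ratio of 0.52 ± 0.17.

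Heavy family 1, the largest family of mouse heavy chain segments, had 28 tested probes. Of these, 21 were higher in RNA labelled KO on both arrays, none was lower on both and 7 had opposite signs, with a median log2 ratio of 0.30 and a range from -0.22 (Ighv1-58) to 0.63 (Ighv1-64). Ighv1-14 had intensities of 77.1 and 79.0 in RNA labelled KO, against 48.2 and 52.8 in RNA labelled WT. It did not overlap between genotypes, with a log2 ratio of 0.63 ± 0.07, which was 0.29 ± 0.10 with normexp and loess. The brightest heavy probe in RNA labelled KO was that of Ighv1-85, with intensities of 4489 and 4950 in RNA labelled KO, against 3292 and 3813 in RNA labelled WT, and a log2 ratio of 0.41 ± 0.05. Ighv1-64, with 2 probes, had log2 ratios of 0.63 ± 0.09 and 0.26 ± 0.12, and Ighv1-66, also among the brightest, of 0.19 ± 0.13. No probe of the family was called by limma, 5 had an unadjusted p under 0.05, and with normexp and loess 15 of the 28 were higher and 2 lower on both arrays.

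The heavy segments that were lower on both arrays lay in families 4, 5 and 6 and in 1 clone. All 3 tested probes of family 5 were lower, Ighv5-9-1 at -0.30 ± 0.13, Ighv5-12-4 at -0.15 ± 0.07 and Ighv5-17 at -0.15 ± 0.13 on the log2 scale. The Ighv5-12-4 and Ighv5-17 probes share 43 bases in a row, so that each can bind RNA of the other segment. With normexp and loess Ighv5-9-1 had opposite signs (0.16 in replicate 1 and -0.53 in replicate 2). Ighv5-9-1 had intensities of 1480 and 1355 in RNA labelled KO, against 1705 and 1773 in RNA labelled WT, with no overlap. Ighv4-2, listed as a pseudogene, was at -0.35 ± 0.36, Ighv6-3 at -0.24 ± 0.18 and the clone probe A_52_P275894 at -0.35 ± 0.31. None of these 6 was called by limma, and each had a mean smaller than 1.5-fold. The probes of Ighv6-6, Ighv1-62-1 and the clone A_52_P377838 had opposite signs on the arrays, with log2 ratios of -0.69 and 0.29, of 0.34 and -0.23, and of -0.18 and 0.56 in replicates 1 and 2. Of the remaining heavy families, Ighv2-2 was at 0.22 ± 0.20, Ighv8-8 at 0.11 ± 0.02, Ighv9-3 at 0.03 ± 0.03 and Ighv8-12 at -0.11 ± 0.18. The 7 tested heavy clone probes had a median log2 ratio of 0.25 (0.19 in replicate 1 and 0.45 in replicate 2), with 5 higher and 1 lower on both arrays.

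Among the kappa segments, 31 of 56 probes were higher in RNA labelled KO on both arrays, 17 were lower and 8 had opposite signs, with a median log2 ratio of 0.16. The share lower on both arrays was 30.4% for kappa probes and 11.8% for heavy probes, a difference that was not tested. In kappa family 4, 12 of the 13 tested probes were higher on both arrays and none was lower, with a median of 0.56. Outside that family 19 of 43 kappa probes were higher and 17 lower, with a median of -0.02, which was 0.07 in replicate 1 and 0.03 in replicate 2.

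Igkv4-57-1 had intensities of 1061 and 1123 in RNA labelled KO, against 481 and 498 in RNA labelled WT. The genotypes lay far apart on both arrays, with a log2 ratio of 1.16 ± 0.02, or 2.23-fold higher (limma, adjusted p = 0.0129). It was 1.04 ± 0.13 with normexp and loess, and the adjusted p ran from 3.72e-07 to 1 over 9 alternatives. The 6 that kept the call all used the scanner's ratios. Igkv4-86 had intensities of 449 and 486 in RNA labelled KO, against 238 and 240.2 in RNA labelled WT, again without overlap. Its log2 ratio of 0.96 ± 0.07 (0.75 ± 0.36 with normexp and loess) narrowly missed the threshold (limma, adjusted p = 0.0548) and passed it in 3 of 9 alternatives. These are the 2 probes of the family that are split on the genome, and each shares at most 10 bases in a row with the probe of another segment.

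The other 11 probes of kappa family 4 each span 60 bases of the genome. Igkv4-71 had intensities of 9276 and 8765 in RNA labelled KO, against 5133 and 6441 in RNA labelled WT, with no overlap and a log2 ratio of 0.65 ± 0.29. Igkv4-51 was at 0.61 ± 0.03 and Igkv4-74 at 0.60 ± 0.06 on the log2 scale, with intensities of 1477 and 1568 in RNA labelled KO, against 983 and 1009 in RNA labelled WT, for Igkv4-51. The lowest ratio of the family was that of Igkv4-57 (0.14 ± 0.31), whose arrays had opposite signs. With normexp and loess 11 of the 13 probes were higher on both arrays and the family median was 0.52.

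Kappa family 12 had the highest median of the kappa families, 0.70 over 4 tested probes, of which 3 were higher on both arrays. Igkv12-41 was measured by 2 probes that do not overlap. The brighter one (A_51_P343336) had intensities of 4617 and 4974 in RNA labelled KO, against 2443 and 2845 in RNA labelled WT, and the dimmer one 502 and 469 in RNA labelled KO, against 250.2 and 291 in RNA labelled WT. Both separated the genotypes on both arrays, with log2 ratios of 0.86 ± 0.08 and 0.85 ± 0.22, and neither was called by limma (adjusted p = 0.0968 and 0.124). Under normexp and loess they were at 0.90 ± 0.41 and 0.58 ± 0.24. The exception in the family was the dim Igkv12-98, with a log2 ratio of 0.77 in replicate 1 and -0.01 in replicate 2.

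Kappa families 8 and 10 were higher on both arrays at all 4 tested probes of each, with median log2 ratios of 0.39 and 0.36. Of family 6, 3 of 5 probes were higher and 1 lower, with a median of 0.29. Igkv6-32 has the brightest kappa probe (A_51_P305262), with intensities of 13768 and 15098 in RNA labelled KO, against 10993 and 12575 in RNA labelled WT, and a log2 ratio of 0.29 ± 0.04. Its dimmer probe (A_52_P112190) was at -0.09 ± 0.28, and it was the only one of the 8 segments with several tested probes whose probes differed in sign. The brighter probe of Igkv10-96, with intensities of 8437 and 8884 in RNA labelled KO, against 6985 and 6381 in RNA labelled WT, had a log2 ratio of 0.37 ± 0.15.

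Of the tested segments, Igkv13-85 had the lowest log2 ratio. Its intensity was 74.1 in replicate 1 and 84.7 in replicate 2 in RNA labelled KO, against 168 and 161 in RNA labelled WT. The genotypes did not overlap, and the log2 ratio was -1.05 ± 0.18, or 2.08-fold lower (limma, adjusted p = 0.0317). Normexp with loess gave -0.62 ± 0.19, and the adjusted p ran from 0.000423 to 1 over 9 alternatives. The 6 that kept the call all used the scanner's ratios. The other member of kappa family 13, Igkv13-84, had intensities of 225 and 224 in RNA labelled KO, against 345 and 333 in RNA labelled WT, with no overlap and a log2 ratio of -0.59 ± 0.03 (limma, adjusted p = 0.461).

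Igkv5-48 was the other kappa segment at least 1.5-fold lower on both arrays. Its intensity was 1589 in replicate 1 and 1632 in replicate 2 in RNA labelled KO, against 2570 and 2638 in RNA labelled WT. The arrays gave the same log2 ratio of -0.69 to 2 decimals (limma, adjusted p = 0.270, not called), and normexp with loess gave -0.67 ± 0.07. The other tested probe of kappa family 5, Igkv5-43, was at -0.02 ± 0.08.

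All 5 tested probes of kappa family 1 were lower in RNA labelled KO on both arrays, with a median log2 ratio of -0.50. The median was -0.18 in replicate 1 and -0.71 in replicate 2. Limma called none of them, and 4 had an unadjusted p under 0.05. Igkv1-117 had intensities of 5725 and 5814 in RNA labelled KO, against 7744 and 8627 in RNA labelled WT, with no overlap and a log2 ratio of -0.50 ± 0.09. Igkv1-35 had intensities of 334 and 306 in RNA labelled KO, against 464 and 501 in RNA labelled WT, and a log2 ratio of -0.59 ± 0.17. Igkv1-133 and Igkv1-132 rested mainly on 1 array, with log2 ratios of -0.06 and -0.17 in replicate 1 and of -1.19 and -0.79 in replicate 2. A kappa clone probe (A_52_P829560) that shares 41 bases in a row with the Igkv1-133 probe was at -0.44 ± 0.36. With normexp and loess the mean was below 0 for all 5 probes of family 1, and 3 were lower on both arrays. Of family 3, 2 of 6 probes were higher and 3 lower, Igkv3-9 at -0.37 ± 0.05, with a family median of -0.18 that had opposite signs on the arrays (0.05 in replicate 1 and -0.32 in replicate 2).

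The kappa families with 1 or 2 tested probes showed no shared direction. Igkv17-121 was at 0.50 ± 0.19, Igkv9-120 at 0.20 ± 0.01 and Igkv19-93 at 0.08 ± 0.02 on the log2 scale, each higher on both arrays. Igkv7-33 was at -0.43 ± 0.21, Igkv18-36 at -0.17 ± 0.01, Igkv2-116, listed as a pseudogene, at -0.15 ± 0.06 and Igkv17-127 at -0.10 ± 0.10, each lower on both arrays. Opposite signs were seen at Igkv2-137 (0.10 ± 0.21), at Igkv14-111 (-0.06 ± 0.23) and at the other probe of kappa family 9 (A_51_P516323, -0.23 ± 0.41).

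The 4 lambda probes had no difference beyond the spread of the arrays at Iglv2 and at the brightest probe. The probes of Iglv1 were at 0.15 ± 0.28 (A_51_P503757), 0.17 ± 0.08 (A_52_P672903) and 0.18 ± 0.03 (A_52_P829408) on the log2 scale, and that of Iglv2 was at 0.11 ± 0.48. The Iglv1 probe A_51_P503757 had the highest intensity of all members, 15912 and 17558 in RNA labelled KO, against 16511 and 13787 in RNA labelled WT. The genotypes overlapped at this probe, and at Iglv2 the arrays had opposite signs, with log2 ratios of -0.23 in replicate 1 and 0.45 in replicate 2. None of the 4 was called by limma (adjusted p = 1), or had an unadjusted p under 0.05. The tested Bivm probe was at -0.19 ± 0.51, with opposite signs.

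By the median gap, probes of the same family or of nearly the same sequence had closer ratios than other pairs of probes. In 19 pairs of probes of 1 chain that were identical at 48 or more bases, the log2 ratios differed by a median of 0.184. In 501 pairs of the same family with fewer identical bases the median gap was 0.211. Most of these pairs lie in heavy family 1, which had 28 tested probes. In the other 2291 pairs, of different families or with a clone that has no family name, the median gap was 0.426. Pairs share probes, so these are descriptions with no test, and the part of binding by near-identical RNA in them was not tested. The 8 segments with several tested probes had gaps between their lowest and highest probe of 0.01 (Igkv12-41) to 0.38 (Igkv6-32), and 7 had the same direction at all probes.

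Some high and low segments were neighbours among the tested segments of their loci, though most such neighbours had means of the same sign. Segments without a tested probe can lie between them. The named heavy probes lie over 2.41 Mb of chromosome 12 (114826478 to 117238298, mm9) and the kappa probes over 3.15 Mb of chromosome 6 (67506063 to 70653980). Neighbouring tested segments had means of opposite sign in 17 of 50 kappa pairs and 12 of 40 heavy pairs. Whether these shares differ from those of a random order was not tested. The pairs named next were picked for their wide gaps in ratio. Igkv4-86 (0.96) and Igkv13-85 (-1.05) lie 19.8 kb apart, and Igkv4-51 (0.61) and Igkv5-48 (-0.69) 45.0 kb apart. Ighv3-8 (1.49) and Ighv6-3 (-0.24), which was lower on both arrays, lie 69.4 kb apart.

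Probes for heavy chain constant regions were also more often higher than lower in RNA labelled KO, while those for lambda constant regions were not. The list used here holds no probe for the kappa constant region, so the region that kappa segments are joined to was not examined. Of 22 probes for antibody constant regions, the joining chain and the IgA transporter Pigr, 14 were higher in RNA labelled KO on both arrays and 3 lower, with a median log2 ratio of 0.20 (0.14 in replicate 1 and 0.30 in replicate 2). The 14 higher ones include both probes of Jchain, the joining chain, and that of Pigr, which are not constant regions. Limma called none of the 22 probes, and 7 had an unadjusted p under 0.05. The highest were the constant regions of IgG2b, with intensities of 7714 and 7196 in RNA labelled KO, against 4320 and 4440 in RNA labelled WT (log2 ratio 0.77 ± 0.10, limma adjusted p = 0.190), and of IgG3 (0.75 ± 0.02). The 3 probes of Ighm, the constant region of IgM, were at 0.58 ± 0.17, 0.22 ± 0.26 and 0.37 ± 0.18, from the brightest to the dimmest, and that of Ighd, of IgD, was at 0.58 ± 0.16. The 3 probes of Igha, the constant region of IgA, were at 0.17 ± 0.22, 0.13 ± 0.19 and 0.08 ± 0.08, and the 2 probes of Jchain, which links IgA and IgM units, at 0.24 ± 0.16 and 0.29 ± 0.20. Lower were a probe of the IgG1 constant region (-0.44 ± 0.09) and those of lambda constant regions 2 (-0.52 ± 0.18) and 3 (-0.40 ± 0.35), while lambda constant region 1 was at 0.27 ± 0.12.

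No probe of Rag1 and Rag2, the recombinase that joins the segments, or of the surrogate light chain gene Igll1 passed the filter.

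Markers of B cells and of other cells moved beside the segments, and their part in the segment ratios was not tested. In bulk RNA fewer cells of a type and less RNA per cell cannot be told apart. Of 20 tested probes for mature B cells, 17 were higher in RNA labelled KO on both arrays and none lower, with a median log2 ratio of 0.54. Their summed intensity was 15232 and 15086 in RNA labelled KO, against 9513 and 10677 in RNA labelled WT. Limma called none, and 13 had an unadjusted p under 0.05. The defining markers Ms4a1 (0.71 ± 0.02 at its brighter probe) and Cd79b (0.55 ± 0.26) were well above background, while 4 further probes, of Pax5, Bank1 and Cd22, did not pass. With normexp and loess this Ms4a1 probe was at 0.67 ± 0.12 and Cd79b at 0.46 ± 0.16, and Fcmr stayed at 0.93. Some dimmer probes shrank more, Blk from 0.86 to 0.22 and the brighter Cr2 probe from 0.71 to 0.40. Of 23 tested plasma cell probes 8 were higher and 2 lower, with a median of 0.05. Their summed intensity was 176141 and 186516 in RNA labelled KO, against 161405 and 158816 in RNA labelled WT. Most of this sum came from the probes of Jchain, which is also in the list of constant regions. Without Jchain the sum was higher in RNA labelled KO in replicate 1 and lower in replicate 2. The lower ones were Xbp1 (-0.18 ± 0.21), a transcription factor of secretory cells, and Sdc1 (-0.12 ± 0.13), a surface marker of plasma cells. The higher ones were both probes of Jchain, both of the receptor gene Tnfrsf13b (0.28 ± 0.21 at the brighter), 1 of Txndc11 (0.14 ± 0.05), and the probes of Prdm1 (0.22 ± 0.14) and Irf4 (0.20 ± 0.20), transcription factors of plasma cells, and of the receptor gene Tnfrsf17 (0.12 ± 0.09).

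Lists of other cells gave medians from -0.04 to 1.78. Follicle stroma and follicle-associated epithelium had 4 of 6 probes higher (median log2 ratio 0.31), T cells 9 of 16 (0.11) and germinal centre B cells 3 of 12 (0.04), with none lower on both arrays in these 3 lists. The last 2 medians were 0.06 and 0.01 in replicate 1 and 0.22 and 0.27 in replicate 2. The Spib probe of the follicle list, higher on both arrays, is also in the list of mature B cells. Myeloid probes split 3 higher and 3 lower of 11 (-0.04). The 9 epithelial probes, all tested, split 2 higher and 1 lower (-0.02). Skeletal muscle, a tissue outside the gut lining, had 8 of 11 probes higher and 1 lower, with a median of 1.78. Limma called 7 of them (0.275% of all tested probes were called). The lower probe was that of Acta1, the brightest of the list (-0.09 ± 0.07). Some called probes were dim in RNA labelled WT, Pvalb at 2.81 and 7.83 units and a Myh1 probe at 10.7 and 9.19. The brighter Myh4 probe, also called, was at 270 and 240. The summed intensity of the muscle list was 5340 and 5157 in RNA labelled KO, against 2800.3 and 2767 in RNA labelled WT. Under the scanner's correction the median of the muscle list was further from 0 than the mean of any V segment. With normexp and loess this order did not hold. Pvalb went from 3.43 to 0.53 and a Myh1 probe from 3.07 to 0.78, below Ighv3-8 at 0.99. Both Myh4 probes (2.18 and 1.58) and Tnnc2 (1.18) stayed above it.

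The means under the scanner's correction and under normexp with loess had an r of 0.96 across 110 segments and the same sign in 104 of them. The largest mean among the 6 with differing sign was 0.38, at Igkv12-98. Ighv3-8, at 98.6 to 302.8 units, had a log2 ratio of 1.49 under the scanner's correction and 0.99 under normexp. Igkv4-57-1, at 481 to 1123 units, had 1.16 and 1.04.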

How the data were processed

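Per the file headers, the scanner files hold spot intensity values and a log10 ratio of Cy5 over Cy3 from Agilent Feature Extraction 11.5.1.1, on array design 014868; the submitters' processing notes name version 9.5. The software subtracted background and normalized the dyes before the ratio, per the file headers. The authors' deposited value table holds the same log10 ratios, within 0.0005, with 0 further columns.

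The log10 ratios were turned to log2 of RNA labelled KO over RNA labelled WT. This ratio, which the rule for the members names, was taken as the main one with results of both corrections known, and the members, gene lists and tests were likewise chosen with earlier results of these data known. Spots marked as outliers were left out, spots of a probe averaged, and dim probes filtered as stated. The mean ratio was tested against 0 with limma 3.58.1 in R 4.3.3 (lmFit and eBayes, 1 residual and 14.6 prior degrees of freedom, no dye term), with Benjamini-Hochberg adjustment at 0.05. Repeat prints of 1 probe (245 probes with 10 prints) had a median SD of 0.173 and 0.166 in log2 ratio. The fit was tested on simulated data.

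Alternatives were normexp with an offset of 50 and loess, loess without background correction, the deposited table, median centring, other filters, spreads and fold thresholds, and each array alone. Probes named are, per chain, up to 6 higher and up to 6 lower on both arrays with the largest smaller ratio, the 3 brightest, the 4 with the largest opposite ratios and all lambda probes. Others were named after their values were seen. Segment names were checked in RefSeq's gene table (GRCm38.p6), of which no coordinate was used. Clone probes are named by probe identifier. The counts of 1 further gene list are not reported here.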

Additional observations from a re-analysis of the deposited data

How the results depend on the processing

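The count of 3 called members was 0 with normexp and loess, 0 with loess and no background correction, 0 without the filter on dim probes and 8 with trended robust variances in limma. It was 3 with the deposited table, with outlier spots kept and with 1 probe per gene, and 4 with median centring or with probes well above background for both genotypes. The counts of 7 higher and 2 lower at 1.5-fold on both arrays were 3 and 1 with normexp and loess, 3 higher with loess alone, 27 and 5 at 1.3-fold and 2 and 0 at 2-fold. Without one array they were 13 to 22 higher and 5 to 7 lower. The median over members was 0.158 to 0.204 and the heavy median 0.248 to 0.305 without one array. With normexp and loess the mean of Ighv6-6 turned to 0.0193, that of Igkv12-98 to -0.00683 and that of Igkv5-43 to 0.0379, and Ighv1-80, Ighv1-82 and Igkv3-4 also changed sign. Over all alternatives 312 values of the probes chosen by the naming rule kept direction and side of the threshold, 7 passed it newly and 9 no longer did, these last at the 3 called probes under normexp, loess alone or no filter. The cause of these changes was not tested, except that a laxer filter adds probes and a stricter fold takes them away. The added alternatives without Bivm, without clones or with 1 value per segment were chosen after seeing the data. No paired analysis was possible because each ratio already sets both genotypes on 1 array and there is 1 group of ratios. Both arrays lie on 1 slide, so no slide block could be fitted. Signal over background limits the dim segments, and 2 arrays limit every value.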
